A study of Mus musculus with 9 samples.

Results

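Integrins and laminins are the receptors and the scaffold by which kidney cells hold to their basement membrane. All mouse genes named as an integrin alpha chain, an integrin beta chain or a laminin chain were taken by symbol from the bulk RNA sequencing of mouse kidney, which gave 37 of the 55385 gene IDs: 18 integrin alpha, 8 integrin beta and 11 laminin genes. Kidney RNA was taken from C57BL/6 mice, 3 libraries to a group, which the labels call biological repeats. Sham mice were injected with saline into the peritoneum, and both other groups received 20 mg/kg of cisplatin, a DNA-crosslinking platinum drug that injures the tubule, by that route and were sampled on day 3 or day 7. Each library was deposited as FPKM, a read level normalised to gene length and to library size. The sources used here do not say whether a repeat is 1 animal, and the p-values measure the spread between these libraries.

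Integrins are receptors made of 1 alpha and 1 beta chain. In epithelia, pairs such as alpha 3 beta 1, alpha 6 beta 1 and alpha 6 beta 4 hold laminin, other beta 1 pairs hold collagen or fibronectin, and the alpha v pairs bind proteins with an arginine-glycine-aspartate motif, some of them releasing active TGF-beta from its latent complex. Leukocytes carry their own set built on beta 2 and beta 7. Laminins are cross-shaped trimers of an alpha, a beta and a gamma chain and form the sheet on which tubule cells, podocytes and endothelium sit: the alpha 5, beta 1 and gamma 1 trimer is typical of tubules, and the alpha 5, beta 2 and gamma 1 trimer of the mature glomerulus.

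The libraries summed to between 421810 and 509537 FPKM, and between 11647 and 13183 genes reached 1 FPKM. The deposited values hold no counts and are rounded to 2 decimals, so read depth is unknown and a value of 0 says only that a gene is listed at 0. Markers of the labelled tissue were present: all 6 proximal tubule markers and all 6 distal nephron and collecting duct markers passed the filter. Of the blood cell lists, none of the 8 T and NK cell, 4 B cell or 7 platelet markers passed it. Injured tubule markers were higher on day 3 for 7 of 8 (87.5%), beside 39.3% of all tested genes. Among the 7, Sox9 passed the filter through day 3 alone, and Krt20 only through libraries after cisplatin. The list summed to 72.7 to 155.8 FPKM in sham, 1752 to 2259 on day 3 and 61.1 to 162.9 on day 7. In whole kidney, fewer cells of a type and less RNA per cell cannot be told apart.

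A gene was tested where at least 3 of the 9 libraries reached 1 FPKM, which 27 of the 37 chain genes did. Tests ran on log2(FPKM + 1) with limma over all 13718 genes that passed, and a gene is called at an adjusted p under 0.05. On day 3, 13 chains were higher than in sham and 3 lower, 48.1% and 11.1% of those tested, where 39.3% and 20.6% of all tested genes were called higher and lower. The 16 called chains are 59.3% of those tested, against 59.9% of all genes, so the number called is near the background. Itga2, Itgb3 and Itgam passed the filter through their day 3 libraries alone and thus had to differ. Itgav and Itga8 passed it only through libraries after cisplatin. Lamc3 passed it only through sham and day 7 libraries. The counts therefore describe the chains that passed and support nothing further. The tested chains had a median log2 fold change of 0.74, and all tested genes one of 0.25. On day 7, 4 chains were higher and 1 lower than in sham (14.8% and 3.7%, against 19.3% and 10.4% of all genes), with a median of 0.11 beside 0.06 for all genes. These 5 are 18.5% of the tested chains, below the 29.7% of all genes called. Between the days, 3 chains were higher on day 7 than on day 3 and 12 lower (11.1% and 44.4%, against 21.7% and 33.7% of all genes), 55.6% called beside 55.4%. Both comparisons with sham use the same sham libraries. Rescaling the libraries by median of ratios moves the median of all genes on day 3 by -0.22, and the chains then stood at 12 higher and 3 lower with a median of 0.56.

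**Figure D1:**
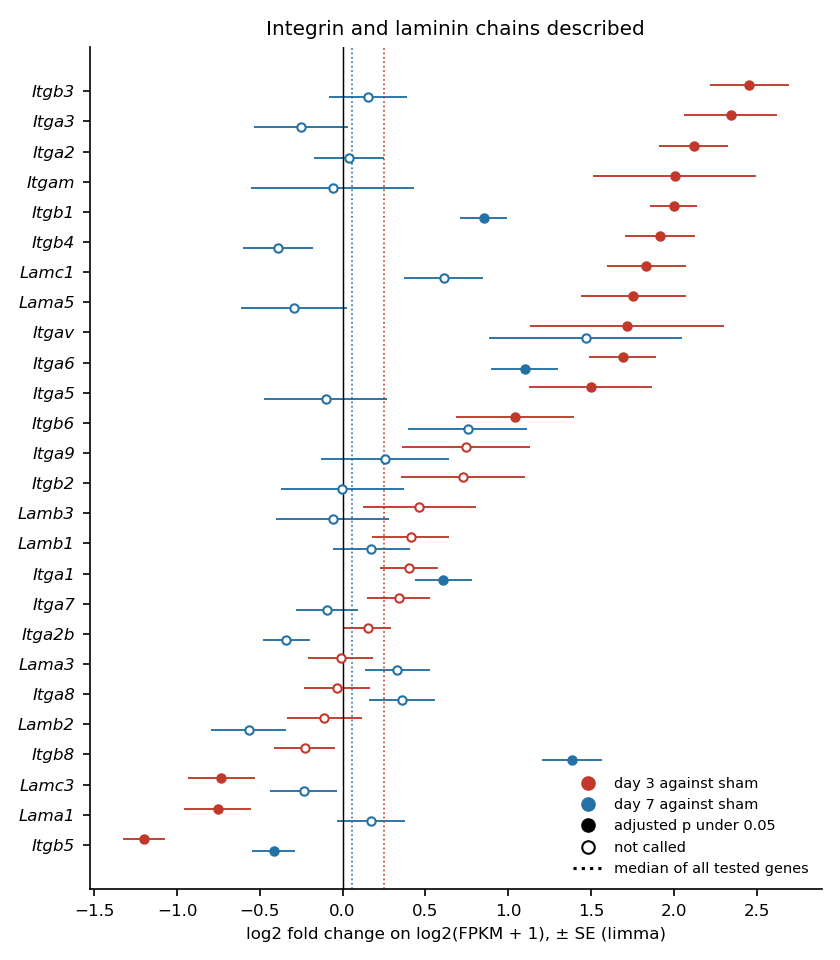
Log2 fold change on the log2(FPKM + 1) scale (x axis, bars are SE from limma) of integrin and laminin chains that passed the filter (y axis) on day 3 (red) and day 7 (blue) against sham, filled where the adjusted p is under 0.05, with dotted lines at the median of all tested genes. Itgb3 lies far to the right at 2.46 for day 3 and at 0.15 for day 7, while Itgb8 lies at 1.38 for day 7 and -0.23 for day 3.

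Promoter windows from RefSeq (GRCm38.p6, around the annotated start sites) were at hand for 23 of the 37 chains, 26 windows in all. Shown here are those of Itgb1 and Itga3, which rose on day 3, Itgb5, which fell, and Itgb8, which rose on day 7. Capitals mark matches, on either strand, to TGANTCA (AP-1), GGAATG (TEAD), GGGCGG (SP and KLF factors) or CCAAT (NF-Y), none of which contains another.
Itgb1, plus strand, chr8:128685404-128685703: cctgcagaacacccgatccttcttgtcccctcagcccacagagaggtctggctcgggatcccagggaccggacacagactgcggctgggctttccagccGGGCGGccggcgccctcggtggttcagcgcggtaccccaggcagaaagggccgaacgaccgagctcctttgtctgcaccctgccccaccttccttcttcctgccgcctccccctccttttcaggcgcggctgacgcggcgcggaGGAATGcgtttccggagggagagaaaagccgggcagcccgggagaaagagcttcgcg
Itga3, minus strand, chr11:95076665-95076964: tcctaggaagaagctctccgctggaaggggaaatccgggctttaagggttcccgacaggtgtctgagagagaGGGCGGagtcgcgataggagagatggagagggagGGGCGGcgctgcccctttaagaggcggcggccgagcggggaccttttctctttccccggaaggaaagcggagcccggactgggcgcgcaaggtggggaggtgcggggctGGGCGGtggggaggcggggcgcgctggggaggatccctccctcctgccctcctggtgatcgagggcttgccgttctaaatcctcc
Itgb5, plus strand, chr16:33829415-33829714: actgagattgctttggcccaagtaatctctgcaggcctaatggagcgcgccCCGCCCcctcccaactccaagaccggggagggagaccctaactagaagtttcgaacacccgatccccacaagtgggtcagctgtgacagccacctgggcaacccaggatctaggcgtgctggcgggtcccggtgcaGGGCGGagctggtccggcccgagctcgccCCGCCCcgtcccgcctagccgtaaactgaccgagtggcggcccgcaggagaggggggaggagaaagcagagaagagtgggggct
Itgb8, minus strand, chr12:119238227-119238526: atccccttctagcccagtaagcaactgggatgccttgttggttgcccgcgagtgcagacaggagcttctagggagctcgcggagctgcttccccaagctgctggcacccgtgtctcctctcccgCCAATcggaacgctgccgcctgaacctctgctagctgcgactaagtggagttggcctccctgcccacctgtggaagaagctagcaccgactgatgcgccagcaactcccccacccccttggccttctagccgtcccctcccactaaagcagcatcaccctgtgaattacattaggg
The SP and KLF letters occur 3 times in the Itga3 window, 3 times in that of Itgb5, once in that of Itgb1 and not in that of Itgb8, so that a chain that rose and one that fell both hold them. These letters were found in 12 of the 26 chain windows and in 35.7% of 32851 mouse promoter windows. The Itgb1 window holds GGAATG 7 bases before the start site, a match found in 3 chain windows and 14.7% of all. Itgb8 holds CCAAT 126 bases before its start, and these letters are in 4 chain windows and 37.4% of all. TGANTCA is in none of the 4 windows shown. It was found in 3 chain windows (a second start of Itga3, Itga9 and Itgax) and in 7.81% of all.

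Itgb1 (chromosome 8, 128685654 to 128733200), the beta chain shared by most matrix receptors, was the most abundant chain after cisplatin. It stood at 40.67, 33.52 and 35.04 FPKM in sham, 148.28, 136.65 and 160.92 on day 3, and 64.31, 78.92 and 57.60 on day 7. All day 3 libraries lay above all day 7 libraries, and those above all sham libraries. The log2 fold change of Itgb1 on day 3 was 2.00 ± 0.14 (SE; adjusted p = 1.33e-05), and on day 7 it was 0.85 ± 0.14 (adjusted p = 0.00374). From day 3 to day 7 Itgb1 fell by 1.15 ± 0.14 (adjusted p = 0.000218). The 12 alpha chains that pair with it summed to 22.8 ± 4.09 FPKM in sham, 91.8 ± 21.1 on day 3 and 34.0 ± 12.4 on day 7 (SD, n = 3).

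Both main laminin-binding alpha chains rose on day 3. Itga3 (chromosome 11, 95044474 to 95076801), which encodes the receptor chain that podocytes and tubule cells use on laminin, was at 13.06, 8.30 and 6.29 FPKM in sham, 38.62, 48.91 and 62.00 on day 3, and 8.49, 8.65 and 5.18 on day 7. The day 3 libraries stood apart, and day 7 overlapped sham. The log2 fold change was 2.34 ± 0.28 on day 3 (adjusted p = 0.000157) and -0.25 ± 0.28 on day 7 (adjusted p = 0.540), and Itga3 fell by 2.59 ± 0.28 from day 3 to day 7 (adjusted p = 0.000114). Itga6 (chromosome 2, 71745616 to 71858416), the partner of beta 1 and of beta 4 on laminin, was at 2.63, 3.62 and 4.68 FPKM in sham, 11.79, 15.28 and 14.41 on day 3, and 7.02, 10.97 and 8.76 on day 7. Its 3 groups did not overlap. Itga6 rose by 1.69 ± 0.20 on day 3 (adjusted p = 0.000153) and by 1.10 ± 0.20 on day 7 (adjusted p = 0.00554). Its fall from day 3 to day 7 (-0.59 ± 0.20, adjusted p = 0.0345) did not hold after median-of-ratios scaling (adjusted p = 0.126), with no filter (adjusted p = 0.0623), and without sham 2, day 3 library 2 or 3, or day 7 library 1 or 3 (adjusted p = 0.0504 to 0.122). Itga7, a laminin receptor chain of muscle, ranged from 0.85 to 2.50 FPKM over all libraries and was not called on either day. Its exons overlap those of Mettl7b on the opposite strand (34.48 to 360.89 FPKM), and whether the counting used strand is not stated in the sources used here. Its day 7 value against day 3, -0.43, was called without day 3 library 2 (-0.56, adjusted p = 0.0496).

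Itgb4 (chromosome 11, 115974709 to 116008412), the beta chain of the hemidesmosome receptor alpha 6 beta 4, was at 2.01, 0.91 and 0.70 FPKM in sham, 7.28, 6.31 and 7.73 on day 3, and 0.85, 0.65 and 0.43 on day 7. Day 3 stood above both other groups, which overlapped. Itgb4 rose by 1.92 ± 0.21 on day 3 (adjusted p = 9.99e-05), and the day 7 value was -0.39 ± 0.21 against sham (adjusted p = 0.200). From day 3 to day 7 Itgb4 fell by 2.31 ± 0.21 (adjusted p = 5.28e-05).

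Of the collagen receptor chains, Itga2 was called against sham on day 3 and Itga1 on day 7, and the difference between the genes was not tested. Itga2 (chromosome 13, 114833081 to 114932100), an epithelial and platelet collagen receptor chain, was at 0.56, 0.11 and 0.09 FPKM in sham, 3.61, 3.90 and 5.88 on day 3, and 0.52, 0.17 and 0.15 on day 7. Sham and day 7 overlapped far below day 3. Itga2 passed the filter through its day 3 libraries alone, so its comparisons with day 3 had to differ and are given as description. Its log2 fold change on day 3 was 2.12 ± 0.21 (adjusted p = 5.69e-05), and 3.91 with a pseudocount of 0.1 in place of 1. On day 7 it stood at 0.04 ± 0.21 against sham (adjusted p = 0.910), and against day 3 Itga2 stood at -2.08 ± 0.21 (adjusted p = 7.93e-05). Itga1 (chromosome 13, 114953096 to 115101964), the neighbouring gene and a collagen receptor chain of mesangial, smooth muscle and endothelial cells, was at 3.22, 3.25 and 3.24 FPKM in sham, 5.95, 3.64 and 4.43 on day 3, and 4.85, 6.85 and 4.88 on day 7. Neither later group overlapped sham. On day 3 it stood at 0.40 ± 0.17 (adjusted p = 0.0727), and was called without day 3 library 2 (0.54, adjusted p = 0.0334). Itga1 rose by 0.61 ± 0.17 on day 7 (adjusted p = 0.0291), a call lost with no filter (adjusted p = 0.0685) and without any 1 of the sham libraries, day 7 library 2 or day 7 library 3 (adjusted p = 0.0510 to 0.0917). Its exons are shared with Gm49395 on the same strand (0.64 to 1.13 FPKM). Itga10 and Itga11, 2 further collagen receptor chains, stayed at or below 0.55 and 0.10 FPKM in every library.

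Itga5 (chromosome 15, 103344286 to 103366763), whose pair with beta 1 is the classical fibronectin receptor, was at 3.06, 1.12 and 1.62 FPKM in sham, 3.74, 7.12 and 12.21 on day 3, and 1.47, 2.22 and 1.29 on day 7. The lowest day 3 library lay just above the highest sham library. Itga5 rose by 1.50 ± 0.37 on day 3 (adjusted p = 0.00725) and stood at -0.10 ± 0.37 on day 7 (adjusted p = 0.860), and its fall between the days was called (-1.60 ± 0.37, adjusted p = 0.00577). Itga9, which binds tenascin and osteopontin, was at 1.34, 1.08 and 1.63 FPKM in sham, 1.01, 3.34 and 5.89 on day 3, and 1.41, 2.52 and 1.57 on day 7. Of the day 3 libraries, library 1 lay below sham and libraries 2 and 3 above it. Its day 3 value of 0.74 ± 0.39 was not called (adjusted p = 0.126), but was without day 3 library 1 (1.23, adjusted p = 0.00352), as was then the fall of Itga9 to day 7 (-0.97, adjusted p = 0.0110). Fibroblast and mural markers had the same order among the day 3 libraries, with summed FPKM of 51.6 to 57.3 in sham, 49.53, 72.24 and 138.48 on day 3, and 40.7 to 69.0 on day 7. Of these 7 markers, all tested and none at 0 throughout, 1 was higher on day 3 (14.3%, beside 39.3% of all tested genes). The order was not particular to them. It also held for the day 3 sums of endothelial markers (48.94, 94.29 and 123.26) and proximal tubule markers (2434, 12592 and 16570). Most of the proximal tubule sum is Kap (2396, 12502 and 16457). Lrp2 did not keep the order (9.29, 8.34 and 14.3), while the other markers of that list did. The order did not hold for podocyte markers (46.15, 96.5 and 90.83). The part of any of these lists in the values of Itga5 and Itga9 was not tested. Itga8, the nephronectin receptor chain of mesangial cells and fibroblasts, ranged from 0.38 to 1.65 FPKM and was not called, except on day 7 against day 3 without day 3 library 3 (0.61, adjusted p = 0.0166). Itga4 stayed at or below 0.90 FPKM and was not tested.

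**Figure D2:**
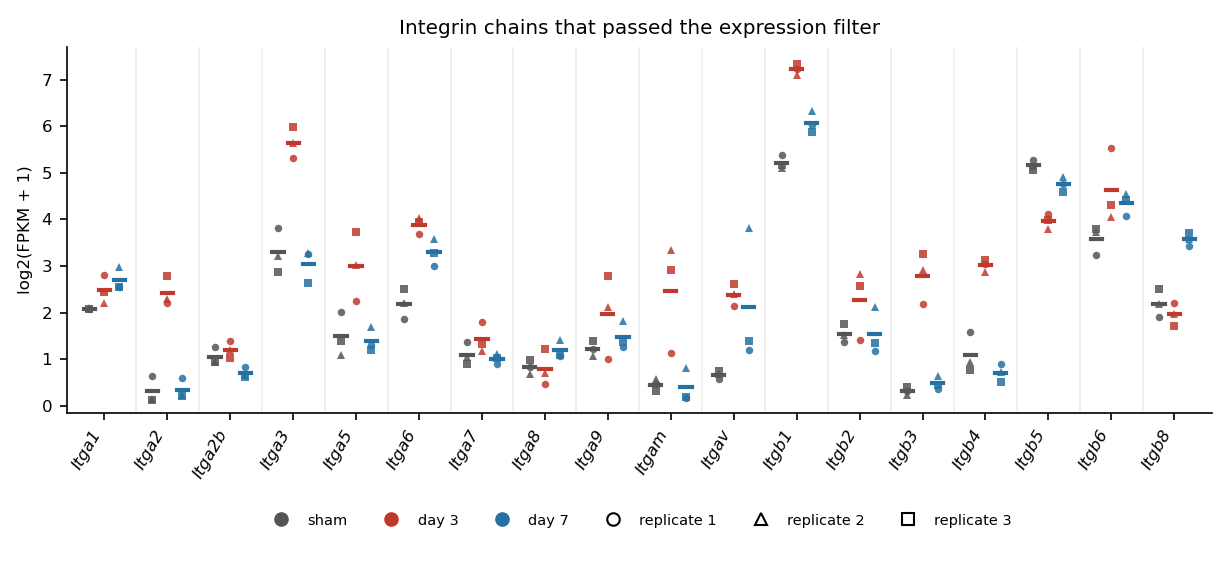
Levels of the 18 integrin chains that passed the filter, as log2(FPKM + 1) on the y axis, in each library of sham (grey), day 3 (red) and day 7 (blue) kidneys, with symbols for replicates and a line at the mean of each group. Itgb1, Itga3, Itgb3 and Itgb4 stand highest on day 3, Itgb5 lowest on day 3, and 1 day 7 library lies far above the other day 7 libraries for Itgav.

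The beta chains that pair with alpha v went in different directions. In sham, Itgb5 (35.0 ± 2.61 FPKM) and Itgb1 (36.4 ± 3.77 FPKM) were the most abundant chains and did not differ beyond their spread. Itgb5 (chromosome 16, 33829665 to 33949338), a vitronectin receptor chain, was at 37.74, 34.64 and 32.56 FPKM in sham, 16.42, 12.94 and 14.78 on day 3, and 25.89, 29.04 and 23.12 on day 7. The 3 groups did not overlap, and day 7 lay between the others. Itgb5 fell by 1.20 ± 0.13 (log2 scale) on day 3 (adjusted p = 8.59e-05) and rose by 0.78 ± 0.13 from day 3 to day 7 (adjusted p = 0.000967). The remaining deficit of Itgb5 on day 7 (-0.42 ± 0.13, adjusted p = 0.0391) was lost with no filter (adjusted p = 0.0686) and without sham 1 or 2, day 3 library 3, or day 7 library 1 or 3 (adjusted p = 0.0548 to 0.135). All 6 proximal tubule markers were lower on day 3 as well, beside 20.6% of all tested genes. They summed to 29271 to 37239 FPKM in sham, 2434 to 16570 on day 3 and 18480 to 28453 on day 7. Most of that sum is Kap, at 28501 to 35637 FPKM in sham, 2396 to 16457 on day 3 and 17596 to 27455 on day 7. Of 6 distal nephron and collecting duct markers, 4 (66.7%) were lower on day 3 and none higher, beside 20.6% and 39.3% of all tested genes. These 6 markers summed to 1146 to 1933 FPKM in sham, 176 to 599 on day 3 and 1265 to 1446 on day 7. No marker of either list was at 0 throughout, and the part of both lists in the Itgb5 values was not tested.

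Itgb3 (chromosome 11, 104608000 to 104670476), the chain of platelets, endothelium and osteoclasts that binds fibrinogen, vitronectin and osteopontin, was at 0.25, 0.18 and 0.33 FPKM in sham, 3.56, 6.49 and 8.49 on day 3, and 0.28, 0.55 and 0.36 on day 7. Only the day 3 libraries reached 1 FPKM. Itgb3 thus passed the filter through them alone, and its comparisons with day 3 had to differ and are given as description. The log2 fold change of Itgb3 on day 3 was 2.46 ± 0.24 (adjusted p = 5.31e-05), and 4.09 with a pseudocount of 0.1. From day 3 to day 7 it fell by 2.30 ± 0.24 (adjusted p = 9.13e-05). Its platelet partner Itga2b ranged from 0.54 to 1.62 FPKM and was not called against sham on either day (0.15 ± 0.14 on day 3, which is 0.00 under median-of-ratios scaling). Under that scaling the day 7 value of Itga2b was called (-0.39, adjusted p = 0.0409), and on the deposited values it was -0.34 (adjusted p = 0.104). The fall of Itga2b from day 3 to day 7 (-0.49 ± 0.14, adjusted p = 0.0166) was lost without day 7 library 3 (-0.45, adjusted p = 0.0591). The 7 platelet markers, none at 0 throughout and none tested, summed to 0.80 to 1.46 FPKM in sham, 1.20, 4.05 and 3.28 on day 3, and 0.50 to 1.10 on day 7, and their part in the Itgb3 values was not tested.

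Itgb6 (chromosome 2, 60598292 to 60722643), an epithelial chain whose pair with alpha v activates latent TGF-beta, was at 8.38, 12.28 and 12.95 FPKM in sham, 45.41, 15.49 and 18.80 on day 3, and 15.71, 22.32 and 20.48 on day 7. All 6 libraries after cisplatin lay above sham, and day 3 library 1 stood apart. Itgb6 rose by 1.04 ± 0.36 on day 3 (adjusted p = 0.0325), and by 0.59 without that library (adjusted p = 0.0473). That call did not hold after median-of-ratios scaling (0.77, adjusted p = 0.0890), with no filter (adjusted p = 0.0660), with the 6 libraries of the contrast alone (adjusted p = 0.0617), and without sham 1 (adjusted p = 0.0963) or sham 2 (adjusted p = 0.0583). On day 7 Itgb6 stood at 0.76 ± 0.36 against sham (adjusted p = 0.145), and was called without day 3 library 1 (adjusted p = 0.0212) and with the 6 libraries alone (adjusted p = 0.0347).

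Itgb8 (chromosome 12, 119158022 to 119238802), another chain that binds latent TGF-beta with alpha v, had the largest log2 fold change against sham among the 5 chains called on day 7. It was at 2.73, 3.51 and 4.66 FPKM in sham, 3.59, 2.92 and 2.28 on day 3, and 9.81, 11.03 and 12.02 on day 7. Sham and day 3 overlapped, and every day 7 library lay above both. Itgb8 rose by 1.38 ± 0.18 against sham (adjusted p = 0.00182) and by 1.61 ± 0.18 against day 3 (adjusted p = 0.000136), with -0.23 ± 0.18 on day 3 against sham (adjusted p = 0.301).

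Itgav (chromosome 2, 83724397 to 83806916), the alpha chain that all of these share, was at 0.48, 0.60 and 0.67 FPKM in sham, 3.42, 4.24 and 5.08 on day 3, and 1.29, 13.00 and 1.61 on day 7. Every library after cisplatin lay above sham, and day 7 library 2 lay above all others. Itgav passed the filter only through libraries after cisplatin, so its comparisons with sham are given as description and add no support. Itgav rose by 1.72 ± 0.58 on day 3 (adjusted p = 0.0310), and with the 6 sham and day 3 libraries alone the same value had an SE of 0.15 (adjusted p = 0.000329). With day 7 library 2 left out the adjusted p was 7.62e-05. In the fit that holds all day 7 libraries, the day 3 call of Itgav was lost with no filter (adjusted p = 0.0662) and without any 1 of the 6 sham and day 3 libraries (adjusted p = 0.0532 to 0.0818), and the value was 2.66 with a pseudocount of 0.1. On day 7 it stood at 1.47 ± 0.58 against sham (adjusted p = 0.0905) and -0.25 ± 0.58 against day 3 (adjusted p = 0.739). Without day 7 library 2, Itgav was called both above sham (0.63, adjusted p = 0.0343) and below day 3 (-1.09, adjusted p = 0.00120). In sham, Itgav at 0.583 ± 0.0961 FPKM was far below Itgb5, Itgb6 and Itgb8, which with Itgb3 summed to 50.1 ± 0.842 FPKM. That sum was 50.4 ± 16.4 on day 3 and 56.9 ± 5.68 on day 7.

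Of the leukocyte chains, Itgam (chromosome 7, 128062640 to 128118491), the alpha chain of the complement receptor on neutrophils and macrophages, was higher on day 3. It was at 0.39, 0.48 and 0.25 FPKM in sham, 1.18, 9.07 and 6.57 on day 3, and 0.13, 0.76 and 0.14 on day 7. Day 3 lay above both other groups, with library 1 far below the other 2. Itgam passed the filter through its day 3 libraries alone, so its comparisons with day 3 had to differ and are given as description. The log2 fold change of Itgam was 2.00 ± 0.49 (adjusted p = 0.00703), and 3.21 with a pseudocount of 0.1, and from day 3 to day 7 it fell by 2.07 ± 0.49 (adjusted p = 0.00672). Its exons overlap Gm49368 on the same strand (0 to 0.97 FPKM). Itgb2, which encodes the beta chain it pairs with, was at 1.57, 1.87 and 2.37 FPKM in sham, 1.67, 6.11 and 4.94 on day 3, and 1.26, 3.33 and 1.53 on day 7. Day 3 library 1 lay within the sham range. The value of 0.73 ± 0.37 was not called (adjusted p = 0.122), but was without that library (1.15, adjusted p = 0.00858), as was the fall of Itgb2 to day 7 (-1.16, adjusted p = 0.00913). Itgal, Itgax, Itgae and Itgb7 stayed at or below 1.13, 1.39, 0.39 and 1.35 FPKM, and were not tested. Itgae, the chain of epithelial T cells, was at 0.29 to 0.33 FPKM in sham and 0.03 to 0.08 on day 3. The 8 T and NK cell markers summed to 1.43 to 3.40 FPKM in sham, 0.05 to 0.26 on day 3 and 1.09 to 2.61 on day 7, and their part in the Itgae values was not tested. Itgad was listed at 0 in all 9 libraries.

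The 7 leukocyte chains summed to 4.22, 4.61 and 4.94 FPKM in sham, 4.14, 17.82 and 13.99 on day 3, and 3.21, 8.03 and 3.31 on day 7. As a share of all integrin FPKM they made up 3.97% ± 0.527 in sham and 3.87% ± 2.40 on day 3 (exact permutation test, two-sided, p = 0.8, where 0.1 is the smallest that 3 against 3 can give), and 2.83% ± 1.04 on day 7 (exact permutation p = 0.2 against sham and 0.6 against day 3). The day 3 difference of -0.10 percentage points turned to 1.15 without day 3 library 1 and 0.10 without sham 3, and that between the days turned from -1.04 to 0.10 without day 3 library 2. The leukocyte marker sums stand beside these. The 6 pan-leukocyte markers summed to 27.6 to 30.7 FPKM in sham, 15.5, 47.96 and 35.18 on day 3, and 13.82, 34.13 and 10.99 on day 7. None of the 5 tested was called on day 3 by limma (1 higher at an unadjusted p under 0.05), beside 59.9% of all tested genes. Of 10 neutrophil markers 4 were tested, and all 4 were higher on day 3, beside 39.3% of all tested genes. Of the 4, Mmp8 passed the filter through its day 3 libraries alone and had to differ. The 10 summed to 2.79 to 14.7 FPKM in sham, 31.35, 109.55 and 57.5 on day 3, and 4.77, 22.89 and 10.33 on day 7. Among 7 tested of 10 macrophage and monocyte markers, 1 was higher on day 3 and 4 lower (14.3% and 57.1%, beside 39.3% and 20.6% of all tested genes). The one that was higher, Cd68, named after its values were seen, was at 3.75 to 5.05 FPKM in sham, 86.7 to 113.57 on day 3 and 1.56 to 4.10 on day 7. The other 9 summed to 63.6 to 70.6 FPKM in sham, 15.62, 30.05 and 38.61 on day 3, and 31.26, 80.19 and 28.35 on day 7, so that the sum over all 10, which is higher on day 3, goes against the rest of the list. No marker of these lists was at 0 in all libraries, and their part in the Itgam and Itgb2 values was not tested.

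**Figure D3:**
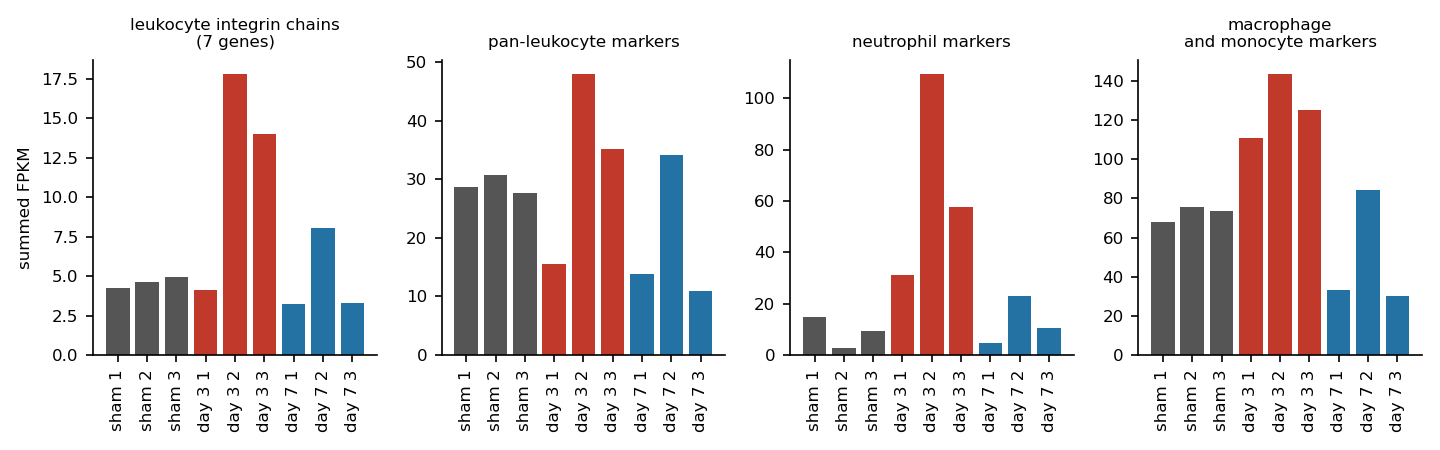
Summed FPKM (y axis, from 0) of the 7 leukocyte integrin chains and of 3 marker lists in each of the 9 libraries (x axis), coloured by group. Day 3 libraries 2 and 3 are highest for the leukocyte chains at 17.82 and 13.99, day 3 library 1 is at 4.14, and day 7 library 2 exceeds the other day 7 libraries in all 4 panels.

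Among the laminin chains, Lamc1 rose on day 3 and Lamc3 fell. Lamc1 (chromosome 1, 153218922 to 153332786), the gamma chain of most basement membranes, was at 3.25, 2.85 and 3.49 FPKM in sham, 20.98, 9.83 and 13.01 on day 3, and 5.54, 6.28 and 4.50 on day 7, with no overlap between any of the groups. Lamc1 rose by 1.83 ± 0.24 on day 3 (adjusted p = 0.000233), and its fall to day 7 was -1.22 ± 0.24 (adjusted p = 0.00237). Against sham its day 7 value of 0.61 ± 0.24 was not called (adjusted p = 0.0841), but was without day 3 library 1 (adjusted p = 0.0178) or 2 (adjusted p = 0.0495) and with the 6 libraries of the contrast alone (adjusted p = 0.0222).

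Lamc3 (chromosome 2, 31887291 to 31946539), a gamma chain of limited distribution, was at 0.65, 1.91 and 1.73 FPKM in sham, 0.40, 0.50 and 0.36 on day 3, and 1.13, 0.95 and 0.94 on day 7, and day 3 lay below both other groups. No day 3 library reached 1 FPKM, and Lamc3 passed the filter through sham and day 7 libraries alone. Its comparisons with day 3 are thus given as description and add no support. Lamc3 fell by 0.73 ± 0.20 on day 3 (adjusted p = 0.0122), and by 1.44 with a pseudocount of 0.1. Its rise from day 3 to day 7 (0.50 ± 0.20) was not called (adjusted p = 0.0626), but was with a pseudocount of 0.1 (adjusted p = 0.0329), with the 6 libraries alone (adjusted p = 0.00808) and without sham 1 (adjusted p = 0.00395). Without sham 1, Lamc3 was also called lower on day 7 than in sham (-0.49, adjusted p = 0.0191, against -0.23, adjusted p = 0.415, with all libraries).

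The alpha chains divided as well. Lama5 (chromosome 2, 180176373 to 180225859), the main alpha chain of adult tubule and glomerulus, was at 14.51, 7.88 and 5.37 FPKM in sham, 42.39, 27.62 and 26.23 on day 3, and 7.58, 7.63 and 5.43 on day 7. Day 3 stood above both other groups, and sham 1 was the highest of the rest. Lama5 rose by 1.76 ± 0.32 on day 3 (adjusted p = 0.00143) and fell from there by 2.05 ± 0.32 to day 7 (adjusted p = 0.000722). Lama1 (chromosome 17, 67697259 to 67822647), the alpha chain of the early embryo that persists in proximal tubule basement membrane, was at 1.79, 2.04 and 1.28 FPKM in sham, 1.20, 0.39 and 0.32 on day 3, and 1.86, 2.00 and 2.22 on day 7. The day 3 libraries were lowest, though library 1 lay close to sham 3. Lama1 fell by 0.75 ± 0.20 on day 3 (adjusted p = 0.0111), by 1.46 with a pseudocount of 0.1, and rose by 0.92 ± 0.20 from day 3 to day 7 (adjusted p = 0.00448). All 6 proximal tubule markers and 4 of 6 distal nephron and collecting duct markers were lower on day 3 too, with the sums and the shares of all tested genes given for Itgb5. The part of both lists in the Lama1 and Lamc3 values was not tested. Lama3, an alpha chain of epithelial laminin, was at 1.70, 2.05 and 3.14 FPKM in sham, 3.04, 1.70 and 2.06 on day 3, and 3.38, 3.04 and 2.82 on day 7, and was not called (-0.01 ± 0.20 on day 3, adjusted p = 0.968). Lama2 and Lama4, the alpha chains of muscle and vessels, stayed at or below 0.97 and 0.69 FPKM and were not tested.

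No beta chain of laminin was called by limma on either day on the deposited values, and at an unadjusted p under 0.05 there was 1, Lamb2 on day 7. Lamb1 (chromosome 12, 31265234 to 31329644), the beta chain of tubules, was at 14.29, 10.90 and 10.30 FPKM in sham, 19.26, 14.30 and 14.60 on day 3, and 11.80, 19.34 and 10.30 on day 7. Day 3 library 2 lay just above sham 1, and the log2 fold change was 0.41 ± 0.23 (adjusted p = 0.155). Lamb2 (chromosome 9, 108479736 to 108490530), the beta chain of the glomerular filter, had sham levels of 13.49, 10.20 and 7.87 FPKM, 7.91, 8.97 and 11.90 on day 3, and 7.76, 7.35 and 5.05 on day 7. The day 7 libraries lay just below the sham range, at -0.57 ± 0.23 (adjusted p = 0.0899), and Lamb2 was called lower there after rescaling by median of ratios (-0.67, adjusted p = 0.0393) and without sham 3 (-0.74, adjusted p = 0.0460). Podocyte markers, 6 of 6 tested, summed to 91.3 to 108.4 FPKM in sham, 46.15 to 96.5 on day 3 and 80.51 to 112.67 on day 7. On each day 1 was lower (16.7%, beside 20.6% of all tested genes on day 3 and 10.4% on day 7). The part of podocyte markers in the Lamb2 values was not tested. Lamb3, a beta chain of epithelial laminin, was at 1.52, 0.29 and 0.39 FPKM in sham, 2.10, 0.99 and 0.92 on day 3, and 1.40, 0.41 and 0.18 on day 7, so that library 1 was highest in every group. Lamb3 was not called (0.46 ± 0.34 on day 3, adjusted p = 0.269). The 6 urothelial markers had the same order within groups for library 1, with sums of 20.76, 3.85 and 7.44 FPKM in sham, 19.67, 9.51 and 7.87 on day 3, and 9.70, 4.28 and 3.18 on day 7. Of the 5 tested urothelial markers 1, Krt5, was higher on day 3 (20%, beside 39.3% of all tested genes). Library 1 was not the highest for Krt5 on day 3 (6.26, 6.25 and 6.64 FPKM). No urothelial marker was at 0 throughout. Of the distal nephron and collecting duct markers, Aqp2, Fxyd4 and Hsd11b2 were also highest in library 1 of each group. Umod, Slc12a1 and Slc12a3 were not. The part of both lists in the Lamb3 values was not tested.

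**Figure D4:**
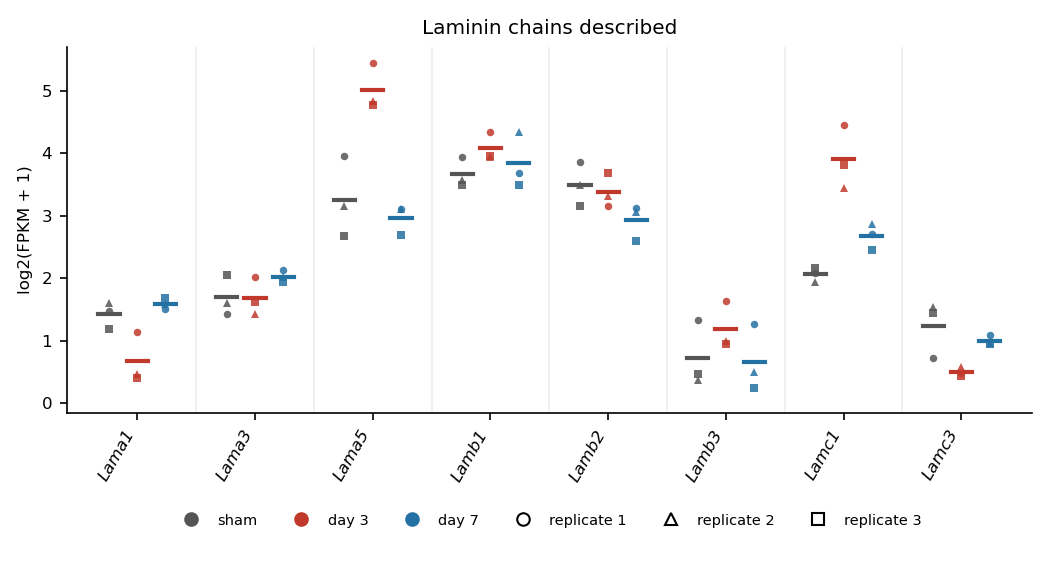
Levels of laminin chains that passed the filter, as log2(FPKM + 1) on the y axis, in each library of sham (grey), day 3 (red) and day 7 (blue) kidneys, with a line at each group mean. Lama5 and Lamc1 stand highest on day 3, Lama1 and Lamc3 lowest on day 3, and Lama3 shows no separation of day 3 from sham.

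Summed FPKM depend on how a library is scaled, and shares within a chain class do not. A share also falls where other chains of its class rise. The laminin chains together summed to 44.7 ± 10.1 FPKM in sham, 101.0 ± 16.2 on day 3 and 43.9 ± 8.75 on day 7, and the integrin chains to 116.2 ± 7.63, 311 ± 27.3 and 164.0 ± 30.8 FPKM. Lama5 held 62.6% ± 13.7 of the laminin alpha chain FPKM in sham, 89.1% ± 1.67 on day 3 and 51.7% ± 4.34 on day 7, while Lama3 held 18.0% ± 10.3, 6.28% ± 0.660 and 23.3% ± 1.83. The level of Lama3 itself was not called on day 3 (-0.01 ± 0.20, limma adjusted p = 0.968). Among beta chains of laminin, Lamb1 held 51.7% ± 3.43, 59.3% ± 6.29 and 64.7% ± 7.67.

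In the integrin beta class, Itgb1 held 40.2% ± 2.62 of the FPKM in sham, 70.6% ± 4.53 on day 3 and 52.5% ± 2.46 on day 7, and Itgb5 held 38.7% ± 1.96, 6.97% ± 0.248 and 20.5% ± 1.15. The groups of neither chain overlapped. Itgb8 held 4.04% ± 1.16 in sham, 1.39% ± 0.304 on day 3 and 8.71% ± 1.48 on day 7, and its level itself was not called on day 3 (-0.23 ± 0.18, limma adjusted p = 0.301). Of the alpha chain FPKM, Itga3 held 35.1% ± 7.79, 49.8% ± 1.62 and 21.2% ± 6.46, and Itga6 14.7% ± 5.81, 14.1% ± 2.11 and 25.3% ± 5.31 in the same order.

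**Figure D5:**
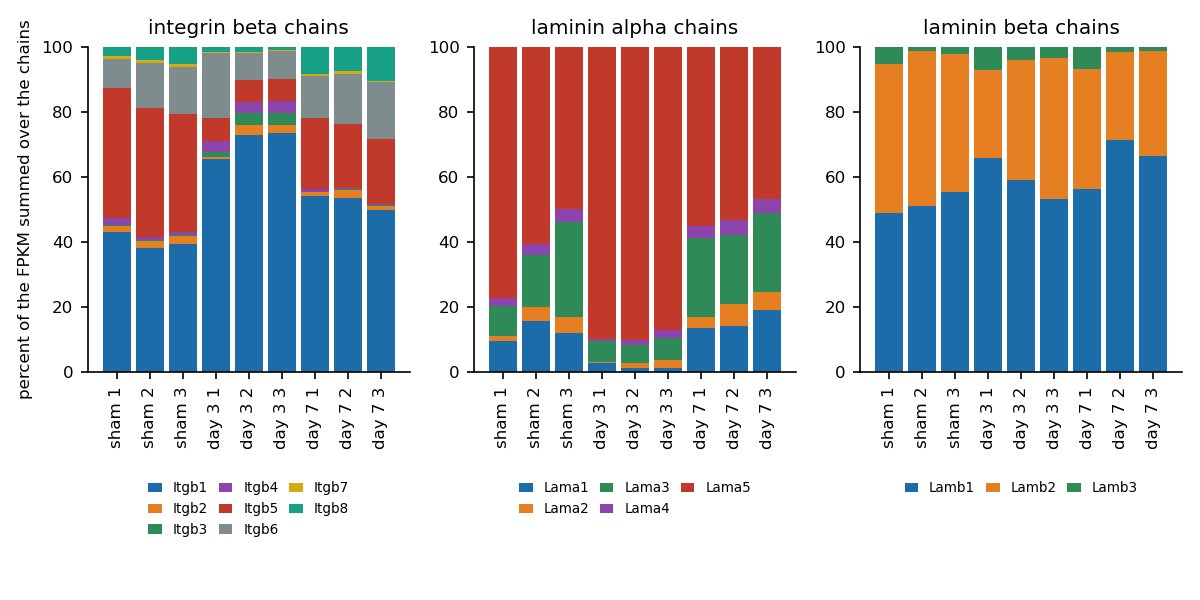
Share of each chain in the FPKM summed over its class (y axis, percent) for integrin beta, laminin alpha and laminin beta chains, with 1 bar for each of the 9 libraries. Itgb1 fills 65.4% to 73.7% of the integrin beta bar on day 3, Lama5 87.2% to 90.3% of the laminin alpha bar, and Itgb5 shrinks from 36.4% to 40.1% in sham to 6.77% to 7.25%.

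Genes that work beside these chains were read from 4 lists. Of 30 tested adaptors and signalling proteins that tie integrins to actin, 13 were higher and 2 lower on day 3, 5 higher and 4 lower on day 7, and 2 higher and 16 lower on day 7 than on day 3, with medians of 0.33, -0.11 and -0.53. Of the adaptors 43.3% were thus higher on day 3, near the 39.3% of all tested genes, and 6.67% lower beside 20.6%. On day 7, 16.7% were higher and 13.3% lower, near the 19.3% and 10.4% of all genes. Between the days 6.67% were higher and 53.3% lower, beside 21.7% and 33.7% of all genes. Actn1, which encodes the actin crosslinker alpha-actinin, went from 5.17 ± 1.18 to 37.4 ± 4.55 FPKM on day 3 (2.65 ± 0.23, adjusted p = 3.06e-05). Vasp, an actin elongation factor of focal adhesions, went from 7.99 ± 0.748 to 33.5 ± 1.62 FPKM. Tln2, one of the talins that switch integrins on, fell by 2.39 ± 0.24, from 8.38 ± 3.34 to 0.703 ± 0.117 FPKM.

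Of 16 tested other basement membrane components, 6 were higher and 3 lower on day 3, 3 higher and none lower on day 7, and 3 higher and 6 lower between the days (medians 0.52, 0.17 and -0.12). These shares, 37.5% higher and 18.8% lower on day 3 and 18.8% higher on day 7, are near the 39.3%, 20.6% and 19.3% of all tested genes. None lower on day 7 stands beside 10.4% of all genes. Between the days 18.8% were higher and 37.5% lower, near the 21.7% and 33.7% of all genes. Col18a1, which encodes a basement membrane collagen, went from 21.8 ± 4.51 to 63.6 ± 20.1 FPKM on day 3, and Nid1, the nidogen that links laminin to collagen IV, from 3.50 ± 0.725 to 12.1 ± 6.60 FPKM (1.42 ± 0.40, adjusted p = 0.0147). Col4a3, a collagen IV chain of glomerular and tubular basement membrane, fell from 20.2 ± 2.56 to 6.96 ± 1.43 FPKM on day 3 and was at 40.1 ± 3.73 FPKM on day 7, which is 0.95 ± 0.16 above sham (adjusted p = 0.00357).

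Among 21 tested other integrin ligands, 14 were higher and none lower on day 3, none was called by limma on day 7 (1 higher and 1 lower at an unadjusted p under 0.05), and 1 was higher and 12 lower between the days (medians 1.25, 0.31 and -1.08). Higher on day 3 were 66.7% of the ligands beside 39.3% of all tested genes, and none was lower beside 20.6%. Tgfb3, one of the 14, passed the filter through its day 3 libraries alone. Tnc and Fbn1, also among the 14, passed it only through libraries after cisplatin. For day 7 the shares of all genes were 19.3% higher and 10.4% lower. Between the days 4.76% of the ligands were higher and 57.1% lower, beside 21.7% and 33.7% of all genes. The largest called fold changes on day 3 were those of Spp1, which encodes osteopontin, a ligand of alpha v and alpha 9 integrins (4.38 ± 0.49), Ccn1, a matricellular ligand of alpha v and alpha 6 integrins (18.3 ± 2.11 to 114.3 ± 20.6 FPKM), and Fgb, a fibrinogen chain (0.830 ± 0.423 to 11.0 ± 7.85 FPKM). Of 10 tested other laminin receptors and hemidesmosome parts, 6 were higher and none lower on day 3, 1 higher and 1 lower on day 7, and 2 higher and 7 lower between the days (medians 0.55, -0.14 and -1.05). On day 3 these are 60% higher, beside 39.3% of all tested genes, and on day 7 they are 10% in each direction, beside 19.3% higher and 10.4% lower. None lower on day 3 stands beside 20.6% of all genes. Between the days 20% were higher and 70% lower, beside 21.7% and 33.7% of all genes. Largest on day 3 were the syndecan gene Sdc1 (3.56 ± 1.40 to 24.5 ± 2.67 FPKM), the hyaluronan receptor gene Cd44 (0.340 ± 0.0800 to 3.44 ± 1.11 FPKM, a log2 fold change of 1.70, and of 2.97 with a pseudocount of 0.1) and Plec, which encodes the hemidesmosome linker plectin (3.24 ± 1.46 to 9.20 ± 0.778 FPKM). Cd44 passed the filter only through libraries after cisplatin.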

How the data were processed

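Kidney RNA was sequenced from 3 sham, 3 day 3 and 3 day 7 libraries. Per the file headers, the authors deposited FPKM per gene and library, and the values have 2 decimals. HISAT, StringTie, FastQC 0.10.1 and GRCm38 are named in the submitters' processing notes, with no role or order. Annotation release, filters and strand use were not given in the sources used here. IDs were matched to symbols of GENCODE M21, on GRCm38, for 55144 of 55385 IDs, and gene coordinates are from that annotation.

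The test was limma 3.58.1 (R 4.3.3) on log2(FPKM + 1) for genes that reached 1 FPKM in 3 or more libraries, with 1 term for group, all 9 libraries, a mean-variance trend and Benjamini-Hochberg adjustment across the tested genes. Log2 fold changes carry standard errors and FPKM means carry SD (n = 3). The log2 scale with a pseudocount of 1 understates changes of low genes. Low values show no steps of single reads at 2 decimals, so the depth per sample is unknown. The fit was tested on simulated data. Shares were compared by exact permutation (scipy 1.17.1). Recomputed alternatives leave out each library, block on replicate number, fit the 6 libraries of a contrast, rescale by median of ratios, filter at 5 FPKM or not at all, or use a pseudocount of 0.1.

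Values in every library are given for tested chains called against sham or averaging 5 FPKM or more in a group, and for a few others. Genes of the other lists are named up to 3 each, by size of the day 3 change among called genes averaging 1 FPKM or more in a group. The chains and lists were chosen with earlier results of these data known. Results for 1 chain gene are not reported here, though it enters the counts, medians and sums.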

Additional observations from a re-analysis of the deposited data

Results flagged for a closer look

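The effects on Itgb8 against sham had opposite signs on day 3 and day 7, and the difference between the days was called. Its log2 fold change was -0.23 on day 3 and 1.38 on day 7, and day 7 exceeded day 3 by 1.61 ± 0.18 (limma, adjusted p = 0.000136), with every day 7 library (9.81, 11.03 and 12.02 FPKM) above every day 3 library (3.59, 2.92 and 2.28 FPKM). The day 3 value on its own was not called, and no cause was tested. Single libraries were not screened for outliers, since each group holds 3.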

How the results depend on the processing

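Of 1125 recomputed values of the chains described, over 15 alternatives and the 3 contrasts, 1038 kept their direction and their side of the threshold, 35 lost a call, 24 gained one and 28 changed sign, all 28 of which were not called on the full data. The 178 recomputed day 3 values of the 12 named genes outside the chain families kept both. Where values are given without a cause, the cause was not tested.

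For day 3 against sham, the median of the tested chains was 0.99 with a pseudocount of 0.1, 0.41 with no filter, 1.72 with a filter at 5 FPKM and 0.56 under median-of-ratios scaling, and 0.59 to 1.15 when single libraries were left out. The filter at 5 FPKM, which tests fewer chains, left 8 higher and 1 lower on day 3, and 7 lower with a median of -0.87 on day 7 against day 3. The count of chains lower on day 7 than in sham, 1, became 3 under median-of-ratios scaling, 0 with no filter and 0 to 2 when single libraries were left out, and the median there ranged from -0.00242 to 0.20. Itga2b on day 3 changed sign under median-of-ratios scaling (-0.000105).

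Leaving out single libraries, the day 7 against sham values ranged from -0.0914 to 0.21 for Itga2, -0.47 to 0.00661 for Itga3, -0.31 to 0.16 for Itga5, -0.20 to 0.0396 for Itga7, -0.27 to 0.0481 for Itgam, -0.29 to 0.18 for Itgb2, -0.59 to 0.0541 for Lama5, -0.0804 to 0.34 for Lamb1 and -0.36 to 0.24 for Lamb3. Those of day 3 against sham ranged from -0.25 to 0.13 for Itga8, -0.17 to 0.17 for Lama3 and -0.28 to 0.0703 for Lamb2, and those of day 7 against day 3 from -1.09 to 0.22 for Itgav and -0.58 to 0.17 for Itgb6. The leukocyte share differed by -1.24 to 1.15 percentage points on day 3 and by -2.29 to 0.10 between the days, and by 1.17 on day 3 over chains passing the filter only. Of the leukocyte chains only Itgam and Itgb2 passed it, Itgam through its day 3 libraries alone. The value of 1.17 therefore favours day 3 by the choice of chains and adds no support.

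The replicate numbers of the titles do not pair the libraries: deviations of same-numbered libraries correlated at -0.05 to 0.24, and not every library correlated best with its own number. With the replicate block, 14 chains were higher and 3 lower on day 3, 3 higher and 0 lower on day 7, and 3 higher and 13 lower on day 7 against day 3; on day 3 Itgb2 (adjusted p = 0.0498) and Lamb3 (adjusted p = 0.0176) gained and Itgb6 (adjusted p = 0.0587) lost a call, on day 7 Itga1 (adjusted p = 0.0531) and Itgb5 (adjusted p = 0.0506) lost one, and Lamb3 gained one between the days (adjusted p = 0.0121). Read depth is unknown, so no counting error could be set beside the low values.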

Other observations

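Day 7 library 2 was the highest of its group for 18 of the 27 tested chains and the lowest for 0. Over all 13718 tested genes it was the highest for 56.4% and the lowest for 18.8%. Among these were Itgav (13.00 FPKM against 1.29 and 1.61), Lamb1 (19.34 against 11.80 and 10.30), Itgam (0.76 against 0.13 and 0.14) and Itgb2 (3.33 against 1.26 and 1.53), chosen after their values were seen. Sham 1 was the highest sham library for 13 of the 27 chains, beside 50.4% of all tested genes.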
